A study of Mus musculus with 18 samples.

Results

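Lysosomal hydrolases are the soluble enzymes that break down protein, glycan, glycosaminoglycan, lipid and glycogen inside lysosomes, and they were followed here together with the small proteins that present lipid substrates to them, across RNA sequencing of mouse nasal mucosa. The members were chosen by gene name, as a list of 43 genes, and all 43 were found among the 54532 genes of the count table. All 43 also passed the low-count filter that left 18291 genes for testing. By function they comprise 13 cathepsins and other peptidases, 14 glycosidases, 5 sulfatases, 7 lipid and thioester hydrolases, and 4 activators and carriers.

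The 18 libraries fall into 3 groups of 6. C10 libraries come from mice given the compound C10, named in the study title as an inhibitor of APE1, at 10 mg/mL and 10 µL per nostril, once a day for 10 days. The protocol states that the drug was given to CRS mice, so C10 mice are taken to have received papain as well. CRS libraries model chronic rhinosinusitis, a long-lasting inflammation of the nasal and sinus lining, by intranasal papain, a plant protease (20 µg in 20 µL of buffer, days 0 to 2 and then days 7 to 11). CON libraries are the controls; their treatment is not stated in the labels, and neither are the strain, sex, age and hour of collection of any of the mice. No vehicle dose is recorded for CRS, so the compound and the extra dosing cannot be told apart in the comparison of C10 with CRS. Whether every library is its own mouse is not stated either, and the p-values below speak only for the spread among libraries, which may be technical in part.

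Lysosomal hydrolases are made in the endoplasmic reticulum, tagged with mannose 6-phosphate in the Golgi and carried by its receptors to acidic compartments, where many are activated by proteolysis. Their genes, like those of the proton pump that acidifies the lysosome, can be switched on together by the transcription factors TFEB, TFE3 and MITF, which bind a palindromic promoter motif named the CLEAR element. In the nasal lining nearly every cell type has lysosomes, and phagocytes such as macrophages and osteoclasts carry the richest supply.

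Promoters of the members are shown because the CLEAR element links many lysosomal genes, and because promoters of called and uncalled members can then be read side by side. The sequences are from RefSeq (build GRCm38.p6, which carries the coordinates of mm10) and run from 250 bases before to 50 bases after a transcription start. Of the 43 members 37 had an entry, while Asah1, Plbd2, Aga, Ctsh, Galns and Ctsb had none. The core letters CACGTG, which read the same on both strands, were present in 11 of the 37 members (29.7%), against 8.09% of 27025 genes with a promoter in the table and 10.5% of the 13073 of those that were tested. The longer form, GTCACGTG or its reverse complement CACGTGAC, contains the core. It was present in 8 of 37 members (21.6%), which are Arsa, Ctsa, Ctsd, Gla, Glb1, Lgmn, Naglu and Sgsh, against 2.55% of all genes in the table and 4.07% of tested genes. A match is only a match of letters, and its absence says only that the letters are not in this window.

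The promoters of Ctsd (chr7:142387778-142388077, minus strand), Arsa (chr15:89477375-89477674, minus strand) and Fuca2 (chr10:13500778-13501077, plus strand) are printed 5′ to 3′ with the longer element in capitals. They belong to the protease, the sulfatase and the fucosidase on which the comparisons below turn. Ctsd has the element at 245 and 98 bases before its start and Arsa at 18 bases before it, and Fuca2 has none in this window.
Ctsd: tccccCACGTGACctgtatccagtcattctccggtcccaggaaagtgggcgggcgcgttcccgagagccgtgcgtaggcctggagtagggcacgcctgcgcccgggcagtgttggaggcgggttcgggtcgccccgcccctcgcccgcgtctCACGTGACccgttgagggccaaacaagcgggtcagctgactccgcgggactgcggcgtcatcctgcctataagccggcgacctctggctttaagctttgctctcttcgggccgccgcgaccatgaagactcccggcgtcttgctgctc
Arsa: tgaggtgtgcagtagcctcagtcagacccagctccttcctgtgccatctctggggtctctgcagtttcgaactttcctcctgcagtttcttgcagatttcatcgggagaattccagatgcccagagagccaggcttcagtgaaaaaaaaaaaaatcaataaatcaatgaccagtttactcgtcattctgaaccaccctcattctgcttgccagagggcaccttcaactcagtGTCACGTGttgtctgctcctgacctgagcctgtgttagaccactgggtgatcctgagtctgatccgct
Fuca2: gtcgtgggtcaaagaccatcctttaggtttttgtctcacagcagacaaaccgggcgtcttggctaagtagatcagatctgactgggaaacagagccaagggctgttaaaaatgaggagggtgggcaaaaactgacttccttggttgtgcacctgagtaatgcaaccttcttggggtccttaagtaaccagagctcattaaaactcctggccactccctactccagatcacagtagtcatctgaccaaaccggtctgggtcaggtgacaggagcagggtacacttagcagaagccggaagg

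The other 6 members with the longer element are shown as short windows around it, so that the shared letters can be read beside flanks that differ; Sgsh carries the element as its reverse complement. Ctsa (chr2:164833749-164833795, plus strand) carries the element in both orientations, and the others carry it singly: Gla (chrX:134601184-134601211, minus strand), Glb1 (chr9:114401018-114401045, plus strand), Lgmn (chr12:102439126-102439153, minus strand), Naglu (chr11:101070009-101070036, plus strand) and Sgsh (chr11:119355522-119355549, minus strand).
Ctsa: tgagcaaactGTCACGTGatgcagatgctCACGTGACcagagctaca
Gla: tgagatctcgGTCACGTGagcaactctc
Glb1: ctgcttctgaGTCACGTGgcctacagag
Lgmn: tggaatgtctGTCACGTGgtccatttta
Naglu: caaccttcagGTCACGTGgcccgaggtc
Sgsh: gcctgccgtgCACGTGACcgtggggagc

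The levels of the members spanned a wide range. Per length, as FPKM (fragments scaled to gene length and library size), Psap was first in all 3 groups, with a mean of 571 ± 63.5 FPKM in C10, 822 ± 202 FPKM in CRS and 869.9 ± 219 FPKM in CON (SD, n = 6 each). Psap encodes prosaposin, the precursor of the saposins that help sphingolipid hydrolases reach their substrates. Ctsd, an aspartic protease, was second, and the cysteine proteases Ctss, Ctsb and Ctsz came next in CON, at 232 ± 124, 228 ± 61.1 and 126 ± 38.7 FPKM; Ctss and Ctsb did not differ beyond their spread. Lgmn, Grn, Hexa, Ctsa and Gusb completed the first 10 in CON, and Galc, which removes galactose from myelin lipids, was the lowest.

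C10 libraries held 15883573 to 18128186 counts, CRS libraries 16531779 to 17523368 and CON libraries 16510920 to 18433866. Markers of mature olfactory neurons and of epithelium, which nasal mucosa should contain, were present in every group, with summed levels of 4364 to 7588 CPM and 4284 to 5674 CPM in C10, 3409 to 8713 and 3369 to 5548 CPM in CRS, and 2934 to 7172 and 3197 to 5163 CPM in CON (CPM, counts scaled to a common library size with TMM factors). Libraries of 1 group differed: CRS 2 and CRS 5 were known from earlier results of these data to stand apart, and their macrophage markers summed to 534 and 984 CPM, against 1541 to 4185 CPM in the other CRS libraries. The members' sums, medians and counts of calls are therefore also given without them. Their member sums were the lowest of CRS too, so leaving them out by itself widens the fall in C10 against CRS. Macrophage and fibroblast markers were not level across the groups, and their values stand with the other cell type markers.

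Taken as a whole, the hydrolases were lowest in C10. Their summed level was 5395 to 6690 CPM in C10 (mean 5864 ± 454), 6272 to 11591 CPM in CRS (8192 ± 1963) and 7172 to 12441 CPM in CON (8956 ± 2014; SD, n = 6 each). All but 1 of the 6 C10 sums lay below every CRS sum, and all 6 lay below every CON sum. C10 3 had the highest C10 sum, at 6690 CPM, above CRS 2 at 6272 CPM and CRS 5 at 6640.5 CPM. Without those 2 libraries the CRS sums were 7205.6 to 11591 CPM (9060 ± 1841, SD, n = 4), above every C10 sum. Those 2 had the lowest CRS sums, so this separation follows from leaving them out and adds no evidence. Scored another way, a C10 library had between 2 and 16 of the 43 members above the median of all 18 libraries, a CRS library between 11 and 41, and a CON library between 15 and 43. CRS 1 (41 members) and CON 5 (43 members) were the fullest libraries, CRS 5 and CRS 2 (11 and 14 members) the poorest of CRS. These are descriptions of a chosen list and carry no test. In bulk tissue, fewer cells of a type and less RNA per cell cannot be told apart.

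**Figure D1:**
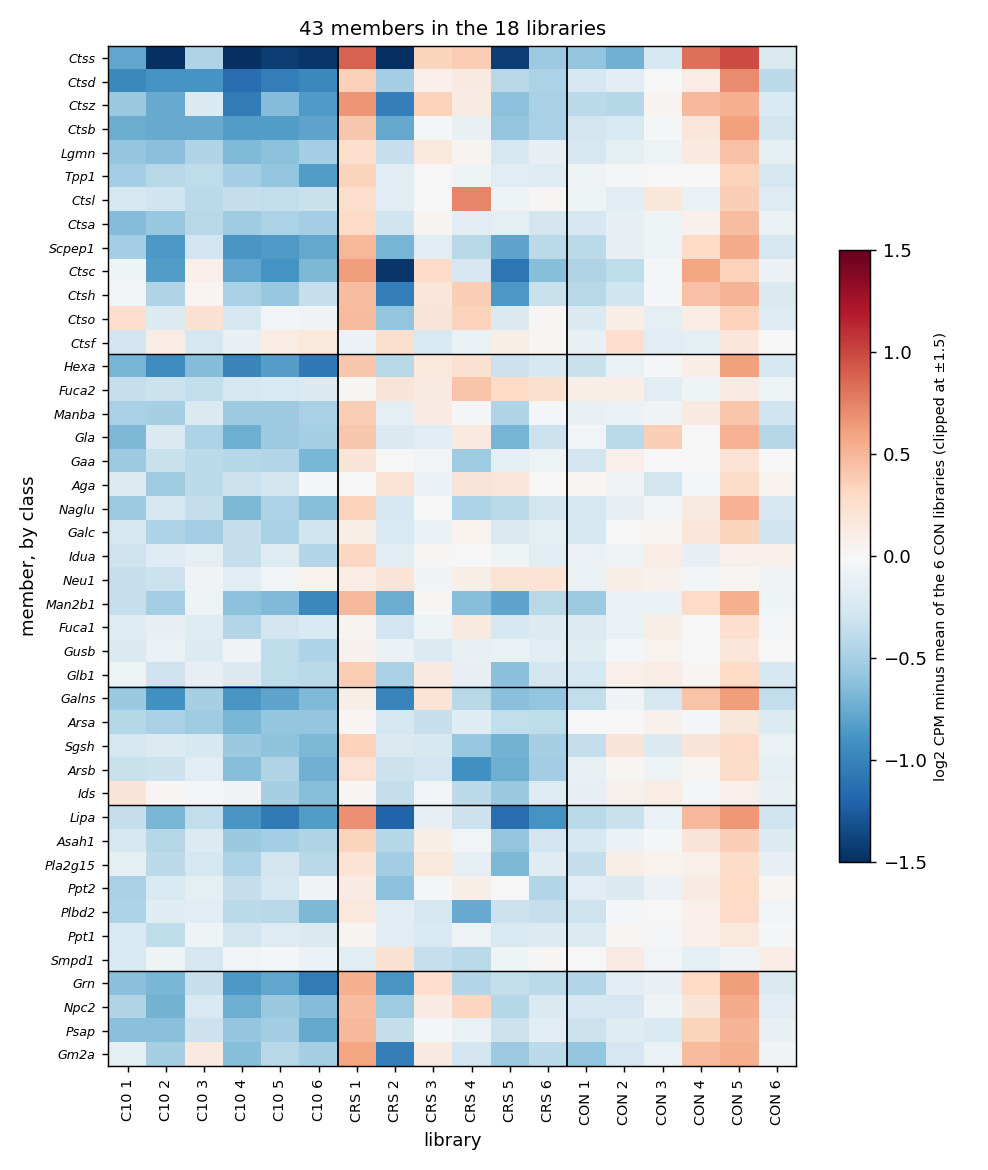
Level of each of the 43 members (rows, ordered by class and separated by lines) in each of the 18 libraries (columns), as log2 CPM minus the mean of the 6 CON libraries, on a colour scale clipped at ±1.5. The 6 C10 columns are mostly blue (below the CON mean), while CRS 1 and CON 5 are mostly red, with 41 and 43 members above the median of all libraries.

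C10 was set against CRS to see which members differed when the compound was added to papain. Of the 43 members 42 had a log2 fold change below 0, against 48.3% of all genes tested, and the median was -0.31, against 0.01 over all 18291 genes. Without CRS 2 and CRS 5 the median was -0.45, with 41 members below 0 against 51.8% of all genes, and the count below 0 was 36 without CRS 1. Fuca2 was the member that passed, as a fall, with edgeR's quasi-likelihood test at an adjusted p under 0.05, that is 1 of 43 where 0.0656% of all genes were called lower. No member was called higher by edgeR (0.0164% of all genes), DESeq2 (0.593%) or limma-voom (1.24%), and 0 were higher at an unadjusted edgeR p under 0.05 (5.77%). At an unadjusted p under 0.05 edgeR had 22 members lower, against 7.41% of all genes. DESeq2 called 12 members lower (1.32% of the genes it tested) and limma-voom with quality weights 11 (1.75%).

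Fuca2 encodes a fucosidase, an enzyme that removes fucose from glycans and is also secreted (ENSMUSG00000019810, chromosome 10 from 13499540 to 13519035 in mm10, plus strand). Its levels were 105, 111 and 117 CPM in C10 (lowest, median and highest of 6), 138, 159 and 183 CPM in CRS, and 121, 137 and 148 CPM in CON. Every C10 library lay below every library of the other groups, and CRS and CON overlapped. Fuca2 fell 1.43-fold in C10 against CRS (log2 fold change -0.52 ± 0.07 SE, edgeR adjusted p = 0.00302). It passed in 30 of 30 alternative fits. Its CRS mean of 159 ± 15.6 CPM was above its CON mean of 137 ± 11 CPM, though CRS against CON did not pass (0.22 ± 0.07, edgeR adjusted p = 0.227), and neither did C10 against CON (-0.30 ± 0.07, edgeR adjusted p = 0.111). Its paralogue Fuca1, the main lysosomal fucosidase, was at 95.6 ± 6.91 CPM in C10, 105 ± 12.9 CPM in CRS and 113 ± 12.5 CPM in CON, and its 3 groups overlapped.

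**Figure D2:**
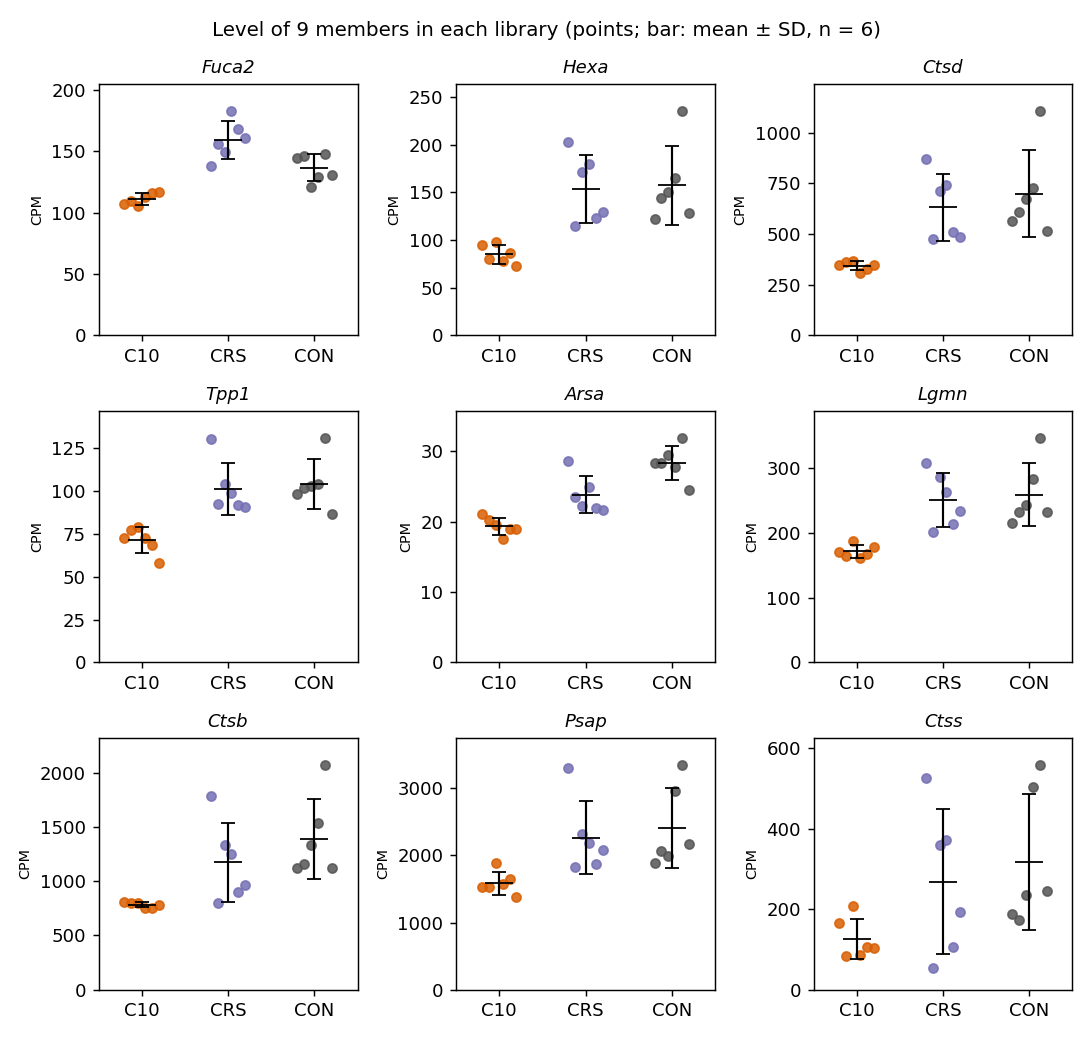
Level of 9 members in CPM (vertical axes, each from 0) in each library of C10, CRS and CON, as points, with the mean ± SD of 6 libraries as bars. For Fuca2, Hexa, Ctsd, Tpp1, Arsa and Lgmn all 6 C10 points lie below all points of CRS and CON, while for Ctsb and Psap they lie below all CON points only, and for Ctss the groups overlap.

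The peptidases, which cut proteins and one another's precursors, had a median log2 fold change of -0.50 in C10 against CRS. All 13 were below 0, 8 of them at an unadjusted p under 0.05 (7.41% of all genes). EdgeR called 0 of the 13, where 0.0656% of all genes were called lower (voom and DESeq2 calls are within the counts above). Ctsd, cathepsin D, was at 306, 346 and 365 CPM in C10 and at 474, 611 and 869 CPM in CRS. All C10 libraries lay below all CRS libraries. The difference of -0.88 ± 0.18 did not pass (edgeR adjusted p = 0.0662), and it did pass without CON 5 (-0.90, edgeR adjusted p = 0.00987) and without CRS 2 (-0.97, edgeR adjusted p = 0.0362), as it did with DESeq2 (adjusted p = 0.000882). It passed in 7 of 30 alternative fits, and did not in 16 of the 18 that left out 1 library. CRS 2 held the lowest CRS value, so a larger fall without it follows from the choice.

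Tpp1, a serine protease that trims tripeptides from protein ends, was at 57.9, 72.5 and 79.1 CPM in C10 and at 90.7, 95.6 and 130.4 CPM in CRS. The groups did not overlap (-0.51 ± 0.11, edgeR adjusted p = 0.0752). Lgmn, legumain, cuts after asparagine and processes cathepsins. It was at 161, 169 and 187 CPM in C10 and at 201, 249 and 308 CPM in CRS, again without overlap (-0.55 ± 0.12, edgeR adjusted p = 0.0912). Both passed without CON 5 (edgeR adjusted p = 0.0326 for Tpp1 and 0.029 for Lgmn) and without CRS 2 (edgeR adjusted p = 0.0485 for Tpp1 and 0.0418 for Lgmn). Each passed in 7 of 30 alternative fits, and did not in 16 of the 18 that left out 1 library. CRS 2 held the lowest CRS value of Lgmn, so its larger fall without CRS 2 follows from the choice.

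Ctsa, a carboxypeptidase that also protects the galactosidase and sialidase it binds, was at 182, 199 and 214 CPM in C10 and at 232, 257 and 349 CPM in CRS. Ctsl, a cysteine endopeptidase, was at 178, 186 and 197 CPM in C10 and at 210.3, 238 and 394 CPM in CRS. In both genes the 2 groups did not overlap, with -0.45 ± 0.11 for Ctsa (edgeR adjusted p = 0.117) and -0.50 ± 0.13 for Ctsl (edgeR adjusted p = 0.13). Ctsb, another cysteine protease, was at 757, 792 and 808 CPM in C10 and at 798, 1109 and 1788 CPM in CRS. Its C10 libraries lay within a narrow band that the lowest CRS library entered (-0.58 ± 0.18, edgeR adjusted p = 0.19).

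Ctss, cathepsin S, is known from antigen-presenting cells, where it trims the invariant chain. It was at 83.7, 104 and 207 CPM in C10 and at 52.8, 276 and 525 CPM in CRS, and CRS 2 held the lowest value of both groups. Its log2 fold change of -1.10 ± 0.45 was the lowest of the 43 but had the widest error (edgeR adjusted p = 0.3). The other peptidases overlapped between the groups: Ctsz, Scpep1, Ctsc, Ctsh, Ctso and Ctsf had log2 fold changes between -0.61 (Ctsz) and -0.03 (Ctsf).

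The 14 glycosidases, which strip sugars from glycans and glycolipids, had a median of -0.32, with all 14 below 0. Of these, 10 were at an unadjusted p under 0.05 (7.41% of all genes), Fuca2 among them. Hexa, the alpha subunit of hexosaminidase A, was at 73.1, 83.5 and 98.2 CPM in C10 and at 115, 151 and 203 CPM in CRS. No libraries overlapped, and the difference of -0.85 ± 0.16 missed the threshold narrowly (edgeR adjusted p = 0.0549). It passed in 9 of 30 alternative fits, among them those without CON 5 (-0.87, edgeR adjusted p = 0.00922), without CRS 2 (-0.94, edgeR adjusted p = 0.0226) and without CRS 5 (-0.93, edgeR adjusted p = 0.0492). CRS 2 held the lowest CRS value of Hexa, so a larger fall without it follows from the choice.

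Gaa, which degrades glycogen in lysosomes, was at 92.9, 110.2 and 118 CPM in C10 and at 103, 143 and 171 CPM in CRS, where CRS 4 alone entered the C10 range (-0.38 ± 0.10, edgeR adjusted p = 0.13). Aga is counted in this class although it splits the bond between asparagine and glycan, not one between sugars. It was at 16.6, 19.5 and 23.7 CPM in C10 and at 22.7, 25.7 and 27.8 CPM in CRS, with overlap at the edges (-0.37 ± 0.10, edgeR adjusted p = 0.121). Galc was the other glycosidase without overlap, at 28.8 ± 2.17 CPM in C10 and 35.6 ± 3.29 CPM in CRS (-0.31 ± 0.10, edgeR adjusted p = 0.191). The remaining 9 (Manba, Gla, Naglu, Idua, Neu1, Man2b1, Fuca1, Gusb and Glb1) ran from -0.45 (Manba, a mannosidase) to -0.12 (Glb1, a galactosidase).

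The sulfatases, which remove sulfate from glycosaminoglycans and sulfolipids, were less shifted, with a median of -0.14. Arsa, which desulfates the myelin lipid sulfatide, was at 17.6, 19.2 and 21.1 CPM in C10 and at 21.7, 22.9 and 28.6 CPM in CRS. Its groups did not overlap (-0.30 ± 0.08, edgeR adjusted p = 0.132). Ids, iduronate sulfatase, was the member on the other side of 0, at 118 ± 25.1 CPM in C10 and 109.5 ± 16.9 CPM in CRS (0.10 ± 0.13, edgeR adjusted p = 0.799). Arsb, which acts on dermatan sulfate, was at 16.5, 20.7 and 24.4 CPM in C10 and at 14.5, 20.4 and 31.6 CPM in CRS (-0.05 ± 0.15, edgeR adjusted p = 0.931), and its value turned to 0.11 without CRS 1.

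The 7 lipid and thioester hydrolases had a median of -0.12, with all 7 below 0. Of these, 0 were called by edgeR (0.0656% of all genes called lower), DESeq2 (1.32%) or limma-voom (1.75%). At an unadjusted edgeR p under 0.05 there were 0 as well (7.41% of all genes lower). For 7 genes these counts are near the shares of all genes. Lipa, the acid lipase of cholesteryl esters, was at 30.5, 37.7 and 49.8 CPM in C10 and at 27.7, 42.6 and 103 CPM in CRS (-0.34 ± 0.29, edgeR adjusted p = 0.662). Its CRS values enclosed the C10 range, and its value was -0.0025 without CRS 1. Asah1, acid ceramidase, was at 88.5, 96 and 113 CPM in C10 and at 85.9, 116 and 164 CPM in CRS (-0.28 ± 0.14, edgeR adjusted p = 0.413). Smpd1, acid sphingomyelinase, was nearly level, at 72.9 ± 4.89 CPM in C10 and 73.4 ± 12.3 CPM in CRS.

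The 4 activators and carriers had a median of -0.53. Psap was at 1376, 1548 and 1882 CPM in C10 and at 1831, 2133 and 3304 CPM in CRS, so that only the edges of the groups met (-0.51 ± 0.16, edgeR adjusted p = 0.191). Npc2, the soluble cholesterol carrier, was at 106, 116 and 150.0 CPM in C10 and at 122, 171 and 242 CPM in CRS (-0.55 ± 0.17, edgeR adjusted p = 0.19). Grn, progranulin, which is cut into granulins in the lysosome, was at 146, 182 and 238 CPM in C10 and at 164, 230.2 and 436 CPM in CRS (-0.56 ± 0.22, edgeR adjusted p = 0.262). Gm2a, the activator that presents ganglioside to hexosaminidase A, was at 109 ± 23.3 CPM in C10 and 121 ± 48.8 CPM in CRS. In these 4 genes the groups overlapped.

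Counted over the members, all 6 C10 libraries lay below all 6 CRS libraries for 9 genes, against 0.525% of all genes tested: Arsa, Ctsa, Ctsd, Ctsl, Fuca2, Galc, Hexa, Lgmn and Tpp1. Without CRS 2 and CRS 5 it was 13 genes, against 1.63% of all genes. For 8 of them (all but Galc) they also lay below all 6 CON libraries, against 0.109% of all genes. Log2 fold changes under -0.5 were found in 12 members, against 4.47% of all genes. Single libraries moved the edgeR count, and the share of all genes called in either direction moved as well. Without CON 5 (0.163% of all genes called) or without CRS 2 (0.438%) it was 5 members (Ctsd, Fuca2, Hexa, Lgmn and Tpp1). It was 2 without CRS 4 (Fuca2 and Gaa; 0.0868%) and 2 without CRS 5 (Fuca2 and Hexa; 0.0759%). Without CRS 2 and CRS 5 together it was 7, with Ctsl and Manba added to the 5 (0.535%). In that fit the class medians were -0.61 for peptidases, -0.39 for glycosidases, -0.23 for sulfatases, -0.22 for lipid and thioester hydrolases and -0.70 for activators and carriers.

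**Figure D3:**
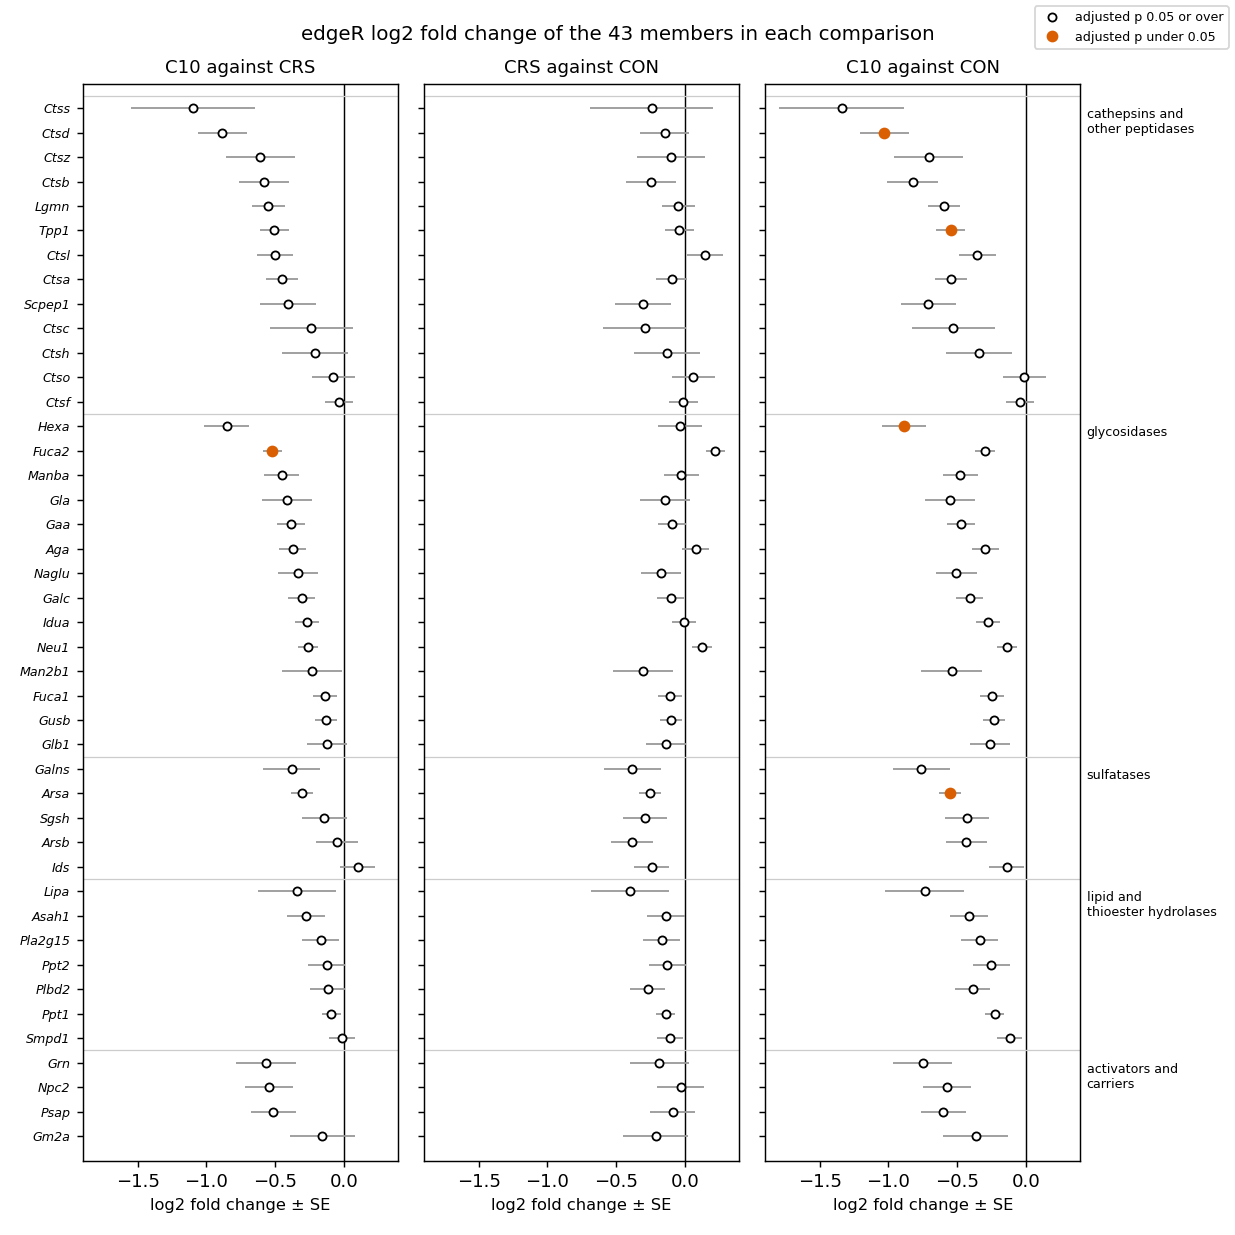
Log2 fold change ± SE (horizontal axes) of the 43 members, 1 per line and grouped by class, for C10 against CRS, CRS against CON and C10 against CON. Filled points passed edgeR at an adjusted p under 0.05 (Fuca2 in C10 against CRS; Ctsd, Tpp1, Hexa and Arsa in C10 against CON), and nearly all points of the outer panels lie left of 0.

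C10 against CON sets mice given compound and papain against controls. It shares the C10 libraries with the comparison above and the CON libraries with the next, so the 3 comparisons are not independent. All 43 members were below 0, against 47.4% of all genes, with a median of -0.43, against 0.01 over all genes. Arsa, Ctsd, Hexa and Tpp1 fell, that is 4 of 43 by edgeR, where 0.115% of all genes were called lower. None was called higher by edgeR (0.0437% of all genes), DESeq2 (0.578%) or limma-voom (0.53%), and 0 were higher at an unadjusted edgeR p under 0.05 (6.29%). At an unadjusted p under 0.05, 33 members were lower, against 6.83% of all genes, while DESeq2 called 15 lower (0.914% of its genes) and limma-voom 13 (0.847%).

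Arsa was at 24.5, 28.3 and 31.9 CPM in CON, above the whole C10 range of 17.6 to 21.1 CPM. It fell 1.47-fold in C10 (-0.55 ± 0.08, edgeR adjusted p = 0.0108) and passed in 30 of 30 alternative fits. Its CRS mean of 23.8 ± 2.64 CPM stood between the C10 mean of 19.3 ± 1.21 CPM and the CON mean of 28.4 ± 2.42 CPM. The gene lies on chromosome 15 from 89472476 to 89477425 (ENSMUSG00000022620, minus strand), and the genes that overlap it had at most 0.048 times its counts.

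Ctsd was at 515, 639 and 1108 CPM in CON, without overlap with its 306 to 365 CPM in C10. It fell 2.04-fold in C10 (-1.03 ± 0.18, edgeR adjusted p = 0.0275). The call ended without CON 2, 3 or 4 or without C10 1, 2, 4, 5 or 6 (edgeR adjusted p = 0.0537 to 0.108). Hexa was at 122, 147 and 236 CPM in CON, against 73.1 to 98.2 CPM in C10, and fell 1.85-fold (-0.89 ± 0.16, edgeR adjusted p = 0.0327). Its call ended in 9 fits that left out 1 library, those without CON 2, 3, 4 or 5 or C10 1, 2, 4, 5 or 6 (edgeR adjusted p = 0.0589 to 0.112). Tpp1 was at 86.3, 102 and 131 CPM in CON, against 57.9 to 79.1 CPM in C10, and fell 1.46-fold (-0.55 ± 0.11, edgeR adjusted p = 0.0431); its call ended in 13 of the 18 fits that left out 1 library, all but those without CON 6 or CRS 1, 2, 4 or 5, with edgeR adjusted p up to 0.128. These 3 calls therefore lie close to the threshold, although over these fits the log2 fold changes stayed between -1.10 and -0.86 for Ctsd and between -0.95 and -0.74 for Hexa.

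All 6 C10 libraries lay below all 6 CON libraries for 14 members, against 1.08% of all genes. These were Arsa, Arsb, Ctsa, Ctsb, Ctsd, Ctsl, Fuca2, Gaa, Galns, Hexa, Idua, Lgmn, Psap and Tpp1. Ctsb was at 1121, 1245 and 2071 CPM in CON, against 757 to 808 CPM in C10 (-0.83 ± 0.18, edgeR adjusted p = 0.0827). Psap was at 1886, 2121 and 3349.7 CPM in CON, against 1376 to 1882 CPM in C10 (-0.60 ± 0.16, edgeR adjusted p = 0.144). In both the groups stood apart in every library while the test over all genes did not pass. Galns, a sulfatase of keratan sulfate, was among the scarcer members, at 11 ± 1.32 CPM in C10 and 18.7 ± 5.89 CPM in CON (-0.76 ± 0.21, edgeR adjusted p = 0.144).

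Among the other named members, Lgmn was at 215, 238 and 347 CPM in CON, against 161 to 187 CPM in C10 (-0.59 ± 0.12, edgeR adjusted p = 0.0525). Grn was at 223, 275 and 464 CPM in CON, against 146 to 238 CPM in C10 (-0.75 ± 0.22, edgeR adjusted p = 0.167), and Lipa was at 48.2, 55.6 and 100.3 CPM in CON, against 30.5 to 49.8 CPM in C10 (-0.74 ± 0.29, edgeR adjusted p = 0.286). CON 5 held the highest CON value of each of these 3. Log2 fold changes under -0.5 were found in 19 members, against 5.57% of all genes. The class medians were -0.55 for peptidases, -0.35 for glycosidases, -0.43 for sulfatases, -0.34 for lipid and thioester hydrolases and -0.59 for activators and carriers. The count of called members was 1 (Arsa) without CON 2, 3 or 4 or C10 1, 2, 4, 5 or 6 (0.0163% to 0.0867% of all genes called in either direction). It was 2 without CON 5 (0.0651%) and 9 without CRS 1 (0.596%). The fibroblast and macrophage markers were below 0 in this comparison too, with median log2 fold changes of -0.74 over 8 and -0.75 over 14 markers.

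CRS was set against CON to see what papain alone was followed by. EdgeR called 0 of the 43 members lower (0% of all genes) and 0 higher (0.00547% of all genes), and DESeq2 likewise called 0 lower (0.272%) and 0 higher (0.675%). Limma-voom with quality weights called Arsa and Arsb lower (2.98% of all genes) and Fuca2 higher (2.16%). At an unadjusted p under 0.05 edgeR had Arsa, Arsb and Plbd2 lower, which is 3 of 43 against 6.3% of all genes, and Fuca2 higher, which is 1 of 43 against 7.75%. These shares are close to the background. The median of the members was -0.13, against 0.00 over all genes, with 38 of 43 below 0 against 49.2% of all genes, and no member lay under -0.5.

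Arsb was at 14.5, 20.4 and 31.6 CPM in CRS and at 24.7, 26.7 and 32.9 CPM in CON (-0.38 ± 0.15, edgeR adjusted p = 0.279). Lipa had the value furthest below 0, at -0.40 ± 0.28 (edgeR adjusted p = 0.544). The sulfatases had the lowest class median, at -0.29, with all 5 below 0. The peptidases and glycosidases had medians of -0.10, and the lipid hydrolases and the activators of -0.14. Of the 18 fits that left out 1 library, the one without CRS 1 gave edgeR calls, 3 in number (Arsa and Arsb lower, Fuca2 higher), where 5.39% of all genes were called, so that this share too is close to the background. Several directions rested on single libraries: Ctsd, at 474 to 869 CPM in CRS and 515 to 1108 CPM in CON, had -0.15 ± 0.18, and 0.04 without CON 5. Hexa had -0.03 ± 0.16, and 0.12 without CON 5. The median itself was -0.25 without CRS 1, -0.069 without CRS 2, -0.075 without CRS 5 and -0.042 without CON 5. Without CRS 2 and CRS 5, 20 of the 43 members were below 0 and the median was 0.010.

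Spread within groups differed as well. The SD of log2 CPM over 6 libraries was smallest in C10 for 35 of the 43 members (81.4%), against 40.9% of all genes tested. The median SD of the members was 0.162 in C10, 0.33 in CRS and 0.24 in CON, while over all genes it was 0.238 in C10, 0.312 in CRS and 0.226 in CON. Ctsb is the clearest case, with a mean ± SD of 785 ± 23.2 CPM in C10, 1173 ± 365 CPM in CRS and 1389.8 ± 370.2 CPM in CON. No test was made of this difference in spread.

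Members with the longer CLEAR element in the promoter window were set beside those without it. In C10 against CRS the 8 members with it had a median log2 fold change of -0.37 and the 29 without it -0.27. In C10 against CON the medians were -0.55 and -0.41, and in CRS against CON -0.14 and -0.10. The ranges overlapped in every comparison: in C10 against CRS they were -0.88 to -0.12 with the element and -1.10 to 0.10 without it. Fuca2, Hexa and Tpp1, each called in 1 comparison, do not have these letters in the window. The Fuca2 window (13500778 to 13501077) lies inside the gene, which begins at 13499540, so the gene's own 5′ end was not searched. The elements counted for Ctsa and Lgmn lie inside their genes too. Ctsa begins at 164832873, before its element window at 164833749 to 164833795. Lgmn, on the minus strand, begins at 102439813, and its element window is 102439126 to 102439153. For Gm2a, counted among the 29, the start used lies more than 100 bases outside the gene of the count table.

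The rest of the lysosomal pathway was examined from lists of genes that are no members. In C10 against CRS the proton pump stood out by its counts, with all 21 V-ATPase subunits below 0 and a median of -0.33. Of these, 16 were at an unadjusted p under 0.05, against 7.41% of all genes. Atp6ap2, Atp6v1c1 and Atp6v0c, subunits that assemble or form the pump, fell. Atp6ap2, the accessory subunit, was at 177 to 194 CPM in C10 and 220.3 to 284 CPM in CRS (-0.45 ± 0.08, edgeR adjusted p = 0.0232). Atp6v1c1 had -0.35 ± 0.06 (edgeR adjusted p = 0.0284) and Atp6v0c -0.43 ± 0.08 (edgeR adjusted p = 0.0442). In CRS against CON the same subunits had a median of 0.19, whereas the median of the hydrolases was -0.13. There 11 subunits were higher at an unadjusted p under 0.05, against 7.75% of all genes, and edgeR called 0.

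Of 26 other soluble lysosomal proteins, 15 were below 0 in C10 against CRS, against 48.3% of all genes, and the median was -0.06. At an unadjusted p under 0.05, 7 were lower, against 7.41% of all genes. Dpp7, a dipeptidyl peptidase, fell, at 11.2 to 15.2 CPM in C10 and 19.7 to 30.2 CPM in CRS (-0.99 ± 0.15, edgeR adjusted p = 0.00642). Of 25 tested lysosomal membrane proteins 17 were below 0, against 48.3% of all genes, with a median of -0.06. Of the 25, 8 were lower at an unadjusted p under 0.05, against 7.41% of all genes. The tetraspanin Cd63 fell, at 177 to 206 CPM in C10 and 286 to 452 CPM in CRS (-0.81 ± 0.13, edgeR adjusted p = 0.0206). The major membrane glycoprotein Lamp1 had -0.40 ± 0.08 (edgeR adjusted p = 0.0549) in C10 against CRS, and it fell in C10 against CON (-0.42 ± 0.08, edgeR adjusted p = 0.0321). Ctns, the cystine exporter, had -0.34 ± 0.07 (edgeR adjusted p = 0.0573).

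Of 17 genes of mannose 6-phosphate tagging and sorting, 14 were below 0 in C10 against CRS, against 48.3% of all genes. At an unadjusted p under 0.05, 4 were lower, against 7.41% of all genes. Their median was -0.12. Cln8, which helps hydrolases leave the endoplasmic reticulum, fell, at 33.8 to 43.2 CPM in C10 and 48.7 to 57.9 CPM in CRS (-0.49 ± 0.08, edgeR adjusted p = 0.0122). Sumf1, which activates all sulfatases, had -0.31 ± 0.08 (edgeR adjusted p = 0.114). Among 12 genes of the MiT/TFE factors and their regulators 10 were below 0, against 48.3% of all genes. Of the 12, 5 were lower at an unadjusted p under 0.05, against 7.41% of all genes. Flcn, which with its partner Fnip2 and the GTPase Rragd relays nutrient state to TFEB and TFE3, fell, at 37.4 to 47 CPM in C10 and 60.1 to 79.7 CPM in CRS (-0.70 ± 0.09, edgeR adjusted p = 0.00246). Fnip2 had -0.86 ± 0.19 (edgeR adjusted p = 0.101) and Rragd -0.59 ± 0.15 (edgeR adjusted p = 0.109). In C10 against CRS the log2 fold changes of Tfeb (-0.07 ± 0.12, edgeR adjusted p = 0.856) and Tfe3 (-0.09 ± 0.10, edgeR adjusted p = 0.769) were near 0. Mitf was at 8.02 ± 1.71 CPM in C10, 8.76 ± 2.64 CPM in CRS and 11.3 ± 2.25 CPM in CON (SD, n = 6 each). Tfec was at 2.64 ± 0.662, 2.64 ± 1.8 and 3.3 ± 1.33 CPM in the same order. In C10 against CON 10 of the 12 genes were below 0 (47.4% of all genes). There 5 were lower at an unadjusted p under 0.05 (6.83% of all genes). All 4 cystatins, which inhibit cysteine cathepsins, were below 0 in C10 against CRS, and Cstb had -0.62 ± 0.18 (edgeR adjusted p = 0.161).

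Markers of cell types rich in lysosomes were followed beside the members. The 14 macrophage and monocyte markers summed to 1270.2 to 2363 CPM in C10, 534 to 4185 CPM in CRS and 1719 to 4103 CPM in CON, and edgeR called 0 of 14 in each comparison. In C10 against CRS their median was -0.46, with 1 of 14 lower at an unadjusted p under 0.05, a share near the 7.41% of all genes. Without CRS 2 and CRS 5 the median was -0.82, with 8 of 14, against 1819 of 18691 genes. These 2 libraries had the lowest CRS sums of these markers, so a larger fall without them follows from the choice. In C10 against CON all 14 were below 0 and the median was -0.75, with 7 of 14 lower at an unadjusted p under 0.05, against 6.83% of all genes. The 6 markers of lipid-associated macrophages summed to 483 to 698 CPM in C10, 646 to 1929 CPM in CRS and 846 to 2431 CPM in CON. Cd9 (274 ± 15 CPM) and Lgals3 (139 ± 25 CPM) had the highest C10 means of the 6 (SD, n = 6). Whether their transcripts came from such macrophages was not tested. Their median was -1.26 in C10 against CRS, with 6 of 6 lower at an unadjusted p under 0.05 (7.41% of all genes). In C10 against CON it was -1.45, with 5 of 6 (6.83%). In CRS against CON it was -0.16, with 0 lower (6.3%). Gpnmb, a glycoprotein of such cells and of osteoclasts, fell, at 16.7 to 77.3 CPM in C10 and 110.1 to 787 CPM in CRS (-3.30 ± 0.56, edgeR adjusted p = 0.0239), and it fell in C10 against CON too (-3.67 ± 0.57, edgeR adjusted p = 0.0122). Trem2, a lipid receptor of macrophages, fell in C10 against CON (-1.75 ± 0.31, edgeR adjusted p = 0.0321).

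Osteoclast markers summed to 110.3 to 297 CPM in C10, 95.2 to 348 CPM in CRS and 193 to 498 CPM in CON. In C10 against CRS 3 of the 7 tested were below 0, with a median log2 fold change of 0.10. All 7 were below 0 in C10 against CON (median -0.61) and in CRS against CON (median -0.51). Fibroblast markers summed to 2038 to 4396 CPM in C10, 2059 to 6849 CPM in CRS and 3099.6 to 10474 CPM in CON. In C10 against CON all 8 fibroblast markers were below 0 with a median of -0.74, 7 of them at an unadjusted p under 0.05 (6.83% of all genes). In CRS against CON all 8 were below 0 with a median of -0.57, 4 of them at that threshold (6.3%). Their median was -0.22 in C10 against CRS, with 0 of 8 at that threshold, and edgeR called 0 of 8 in each comparison. Neutrophil markers without Ltf, which glands also make, summed to 126 to 280.1 CPM in C10, 16 to 355 CPM in CRS and 132 to 383 CPM in CON. No marker of these lists was at 0 over a whole group. With the mean level of the macrophage and monocyte markers as a covariate, edgeR called 17 members lower in C10 against CRS (2.46% of all genes called in either direction). It called 6 in C10 against CON (1.13%) and 0 in CRS against CON (0.0164%). The medians of the 43 members in that fit were -0.27 in C10 against CRS, -0.26 in C10 against CON and 0.026 in CRS against CON. With the olfactory neuron markers as the covariate edgeR called 20 in C10 against CRS (3.9%), 17 in C10 against CON (1.36%) and 0 in CRS against CON (0.0109%). The part of the lipid-associated macrophage and fibroblast markers in the members' values was not tested.

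**Figure D4:**
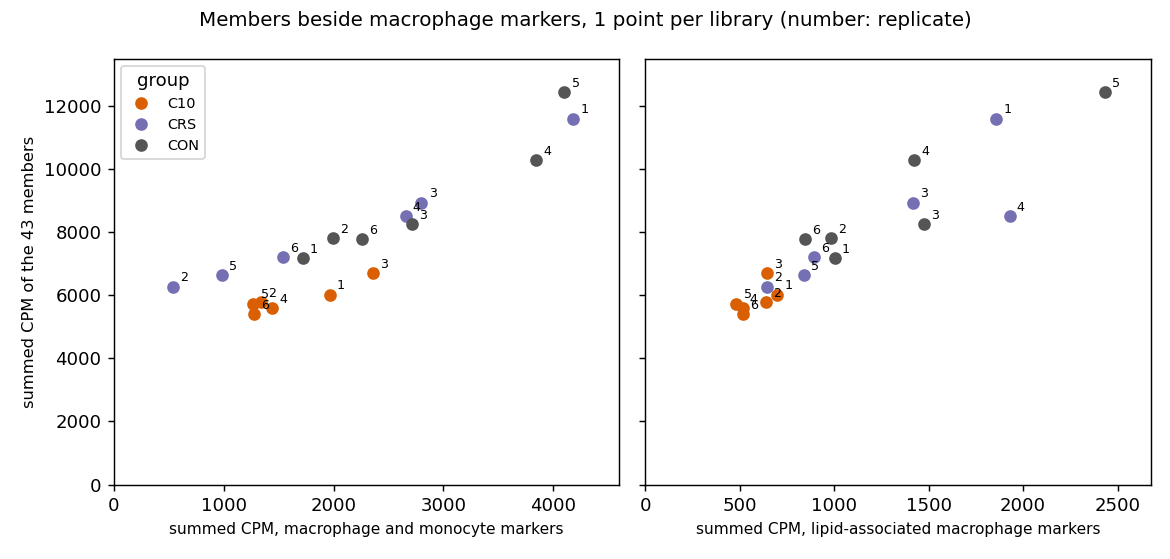
Summed CPM of the 43 members (vertical axes) against the summed CPM of 14 macrophage and monocyte markers (left) and of 6 lipid-associated macrophage markers (right), 1 point per library with its replicate number. CRS 2 and CRS 5 have fewer macrophage and monocyte markers (534 and 984 CPM) than any C10 library. Their lipid-associated macrophage markers are 646 and 841 CPM, against 483 to 698 CPM in C10. The member sums of CRS 2 and CRS 5 are 6272 and 6640.5 CPM, while the C10 sums are 5395 to 6690 CPM.

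Counting limits some members. The kit is not stated to keep the strand, so reads of overlapping genes cannot be told apart; 21 members overlap another gene of the table and 12 overlap a protein-coding one. Fuca2, Lgmn and Tpp1 overlap none. For Ppt1 the largest overlapping gene, Cap1, had 2.61 times its counts, and for Idua it was 0.905 times, so these 2 are uncertain.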

How the data were processed

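Poly(A)-selected RNA of mouse nasal mucosa was sequenced in 18 libraries, 6 per group, with a kit not stated to keep the strand, per the labels' protocols. The authors deposited a table of unnormalized counts (whole numbers, 1 value per gene and library). The submitters' processing notes give build mm10. For the aligner, the counter and the annotation, nothing is given in the sources used here. Their deposited FPKM table equals those counts divided by gene length and library size (largest relative deviation 5.22e-15) and was used for levels between genes and as an alternative. All sample columns were matched to a library (0 left over).

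Counts were analysed in R 4.3.3 with edgeR 4.0.16: filterByExpr by group (18291 of 54532 genes kept), TMM factors and quasi-likelihood F-tests on all 18 libraries with 1 mean per group, two-sided, Benjamini-Hochberg adjusted over all genes, called under 0.05. The biological coefficient of variation was 0.264. The SE is the log2 fold change over the square root of F. CPM per library uses TMM-scaled sizes. Totals of 15883573 to 18433866 counts set the precision. The steps were tested on simulated data.

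Members named with values per library had the 10 smallest p in C10 against CRS or the 3 smallest in another comparison, or were 10 fixed major enzymes and activators; Galc, Ids, Smpd1, Gm2a, Fuca1 and Galns were added after their values were seen. From each pathway list the 3 genes of smallest p in C10 against CRS were eligible, and Tfeb, Tfe3, Mitf and Tfec were added later. The members, the lists and the tests were chosen with earlier results of these data known. Promoter letters were searched on both strands; 98.3% of 54409 genes shared with a GRCm38 annotation had the same coordinates.

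Alternatives were RLE size factors, no filter, a minimum of 1 CPM in 6 libraries, a replicate block, fits of 2 groups alone, a covariate of macrophage or of olfactory neuron markers, limma-voom with quality weights (limma 3.58.1), DESeq2 1.42.0, limma on log2 of FPKM plus 1 or 0.1, and leaving out each library or CRS 2 and 5 together.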

Additional observations from a re-analysis of the deposited data

Results flagged for a closer look

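In 8 of 156 checked sets of 6 libraries (129 of them members) the highest library stood far from the other 5, by Dixon's 95% limit on its gap over the range. Chance alone picks out about 1 in 20 such sets, and all 8 were members. CRS 1 was the library in 5 of them: Psap at 3304 CPM (others 1831 to 2315), Tpp1 at 130.4 CPM (90.7 to 104), Scpep1 at 103 CPM (42.1 to 64.6), Sgsh at 31.1 CPM (15 to 21) and Idua at 25.5 CPM (18.4 to 20.7). CON 5 was the library for Ctsd, at 1108 CPM (515 to 728), and for Arsb, at 32.9 CPM (24.7 to 27.7). C10 3 was the library for Manba, at 27.7 CPM (22 to 23). Macrophage and monocyte markers were also highest in these libraries within their groups, with sums of 4185 CPM in CRS 1, 4103 CPM in CON 5 and 2363 CPM in C10 3, and their part in these values was not tested.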

How the results depend on the processing

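The median of the members stayed below 0 in all 30 alternative fits of C10 against CRS and of C10 against CON, while for CRS against CON it turned to 0.026 with the macrophage covariate and to 0.010 without CRS 2 and 5. For C10 against CON it was -0.26 with the macrophage covariate. Leaving out 1 library gave -0.37 to -0.21 for C10 against CRS, -0.25 to -0.042 for CRS against CON and -0.50 to -0.38 for C10 against CON. The number of members called changed more. In C10 against CRS it was 2 with at least 1 CPM in 6 libraries (0.135% of all genes called in either direction). It was 17 with the macrophage covariate (2.46%), 20 with the olfactory covariate (3.9%), 12 with DESeq2 (1.92%) and 11 with limma-voom (3%). It was 7 without CRS 2 and 5 (0.535%), and 1 to 5 without 1 library (0.0379% to 0.438%). In CRS against CON it was 3 with limma-voom (5.14%) and 0 to 3 without 1 library (0% to 5.39%). In C10 against CON it was 9 with the 2 groups alone (0.906%), 17 with the olfactory covariate (1.36%), 15 with DESeq2 (1.49%) and 13 with limma-voom (1.38%). It was 7 without CRS 2 and 5 (0.396%), and 1 to 9 without 1 library (0.0163% to 0.596%). Whether replicate numbers pair the libraries is not known. Of 18 same-number correlations 8 were over 0.1 (-0.574 to 0.519), and those of C10 with CRS ran from -0.231 to 0.519. With 6 libraries per group these values cannot settle it. The replicate block gave 1 called member in C10 against CRS (0.0711% of all genes called in either direction). It gave 0 in CRS against CON (0%) and 1 (Arsa) in C10 against CON (0.0656%). The 42 members below 0 in C10 against CRS were 36 without CRS 1, 37 with limma-voom, 39 with the macrophage covariate and 40 to 42 in the other 27 fits. Named members that turned direction did so mostly in CRS against CON. In C10 against CRS limma-voom gave 0.054 for Arsb and 0.048 for Lipa, and Arsb ran from -0.14 to 0.11 without 1 library. In CRS against CON the macrophage covariate gave 0.049 for Asah1, 0.031 for Ctsa, 0.068 for Ctsd, 0.31 for Ctss, 0.097 for Grn, 0.18 for Hexa, 0.11 for Lgmn, 0.21 for Npc2, 0.11 for Psap and 0.067 for Tpp1. The olfactory covariate gave 0.018 for Ctsd, 0.12 for Hexa, 0.055 for Lgmn, 0.11 for Npc2, 0.033 for Psap and 0.048 for Tpp1. Without CRS 2 and 5 the values were 0.035 for Asah1, 0.016 for Ctsd, 0.20 for Ctss, 0.0073 for Grn, 0.13 for Hexa, 0.084 for Lgmn, 0.17 for Npc2, 0.046 for Psap and 0.035 for Tpp1. Without 1 library the range was -0.18 to 0.018 for Ctsa, -0.26 to 0.040 for Ctsd, -0.55 to 0.0048 for Ctss, -0.13 to 0.12 for Hexa, -0.11 to 0.062 for Lgmn, -0.14 to 0.11 for Npc2, -0.23 to 0.035 for Psap and -0.13 to 0.043 for Tpp1. The cause of these changes was not tested. The least precise of the 43 was Ctss, with an SE of 0.45 in C10 against CRS.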
